A study of Mus musculus with 20 samples.

Results

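Messenger RNA of 9 antioxidant enzyme genes was followed in visceral fat of 20 female C57BL/6J mice: the glutathione peroxidases Gpx1, Gpx3, Gpx4, Gpx7 and Gpx8, the superoxide dismutases Sod1, Sod2 and Sod3, and catalase (Cat). The members were named by symbol, and each gene was represented by 1 probe set of that symbol, chosen by the highest mean log2 intensity over all 20 arrays, a choice that is blind to the groups. In all, 19 of the 45101 probe sets on the array belonged to these genes, 17 of them passed the filter on dim probe sets, and the chosen probe set passed for all 9 genes. The mice fell into 4 groups of 5: control non pregnant and control pregnant mice were fed a diet with 10% fat, HF non pregnant and HF pregnant mice a diet with 58% fat. Pregnant mice were taken at E18.5, late gestation in the mouse. The labels list E18.5 for the non pregnant mice as well. One array was run per mouse and the RNA came from whole fat, so that fewer cells of a type and less RNA per cell cannot be told apart. The question was how diet and pregnancy, alone and in combination, related to the expression of enzymes that remove superoxide and peroxides.

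Superoxide leaks from mitochondria and is produced by oxidases. Superoxide dismutases turn it into hydrogen peroxide, Sod1 in the cytosol with copper and zinc, Sod2 in the mitochondrial matrix with manganese, and Sod3 outside the cell. Hydrogen peroxide is then removed by catalase in peroxisomes and by glutathione peroxidases at the expense of glutathione. Gpx1 is the common peroxidase of the cytosol and mitochondria, Gpx3 is secreted and is the glutathione peroxidase of plasma, and Gpx4 reduces lipid peroxides within membranes. These 3 are selenoproteins. Gpx7 and Gpx8 lie in the endoplasmic reticulum, where peroxide arises when disulfide bonds are formed, and carry cysteine in place of selenocysteine. In adipose tissue these enzymes are studied for their part in the oxidative stress of obesity.

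The stretch of 250 bases before the transcript start is shown for Gpx3, the gene with the largest difference between groups, and for Gpx4 and Sod2, the pair that varied most closely together from mouse to mouse. Sequences and starts are those of RefSeq on GRCm38.p6, read 5′ to 3′ on the strand of the gene, which is the plus strand for all 3. RefSeq had a promoter for 8 of the 9 genes. Capitals mark a GC box (GGGCGG) or a CCAAT box (CCAAT), on either strand, as these letters alone.
Gpx3, chr11:54902604-54902853: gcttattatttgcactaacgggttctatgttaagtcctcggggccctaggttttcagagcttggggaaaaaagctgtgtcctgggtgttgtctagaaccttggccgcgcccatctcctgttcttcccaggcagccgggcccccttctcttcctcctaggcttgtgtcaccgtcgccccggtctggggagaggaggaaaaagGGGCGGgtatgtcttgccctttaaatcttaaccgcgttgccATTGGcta
Gpx4, chr10:80053315-80053564: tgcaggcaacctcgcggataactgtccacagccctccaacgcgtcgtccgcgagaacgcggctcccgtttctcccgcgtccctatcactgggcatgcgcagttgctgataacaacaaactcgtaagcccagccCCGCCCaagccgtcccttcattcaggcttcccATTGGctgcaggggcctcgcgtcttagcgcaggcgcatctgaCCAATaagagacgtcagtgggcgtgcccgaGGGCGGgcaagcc
Sod2, chr17:13007589-13007838: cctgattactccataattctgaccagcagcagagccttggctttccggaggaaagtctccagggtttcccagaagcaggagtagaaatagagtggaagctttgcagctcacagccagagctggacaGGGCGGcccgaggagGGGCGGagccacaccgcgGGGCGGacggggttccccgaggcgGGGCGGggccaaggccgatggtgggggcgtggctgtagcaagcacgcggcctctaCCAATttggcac
The Gpx3 window held 1 GC box, 49 bases before the start, and 1 CCAAT box in reverse, 8 bases before it. The Gpx4 window, one of 4 that RefSeq gives for this gene, held GC boxes 117 and 13 bases and CCAAT boxes 85 and 43 bases before its start. The Sod2 window held 4 GC boxes, 124, 109, 91 and 67 bases before the start, and 1 CCAAT box at 12 bases. No match overlapped another in these windows. A GC box was present in 32.7% and a CCAAT box in 33.8% of the 32851 mouse promoter windows of this length. The core of the antioxidant response element (TGACNNNGC, either strand), the letters that Nrf2 is known to bind, was not in these 3 windows. It was found in the window of 1 member, Sod1, and in 10.2% of all windows. A match is a description of letters only.

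The tissue label was checked against adipocyte markers. Of 13 listed, 11 were measured above the filter (Plin1 and Cfd were not), with Fabp4, the fatty acid carrier of adipocytes, between 20803 and 29937 and adiponectin (Adipoq) between 14336 and 24630 on the linear intensity scale. Genes of pancreatic acinar cells stood out on 2 arrays, control non pregnant 4 and control pregnant 2, whose mean log2 deviation over 3 such genes was 4.30 and 4.57, against at most 0.78 on any other array. Calls of the 9 genes that change without these 2 arrays are given with both values.

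Gpx3 was higher in HF pregnant mice than in every other mouse of the study. The gene was known to stand out when the list was drawn up, so its values are given as a description of size and spread and not as independent evidence. Its log2 intensity in HF pregnant mice was 12.30, 12.78, 12.39, 11.89 and 12.52. In HF non pregnant mice it was 10.51, 10.31, 10.92, 10.61 and 9.62. The HF groups did not overlap, and the lowest pregnant mouse lay well above the highest non pregnant one. Control pregnant mice had 11.27, 10.81, 10.72, 10.42 and 10.79, and control non pregnant mice 11.22, 10.71, 11.22, 9.80 and 10.15, so the 3 groups other than HF pregnant overlapped one another. On the linear scale the lowest HF pregnant mouse stood at 3802 and the highest of the 15 other mice at 2463. A complete separation of HF pregnant mice above the other 15 was seen for 23 of 19802 probe sets (0.116%).

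**Figure D1:**
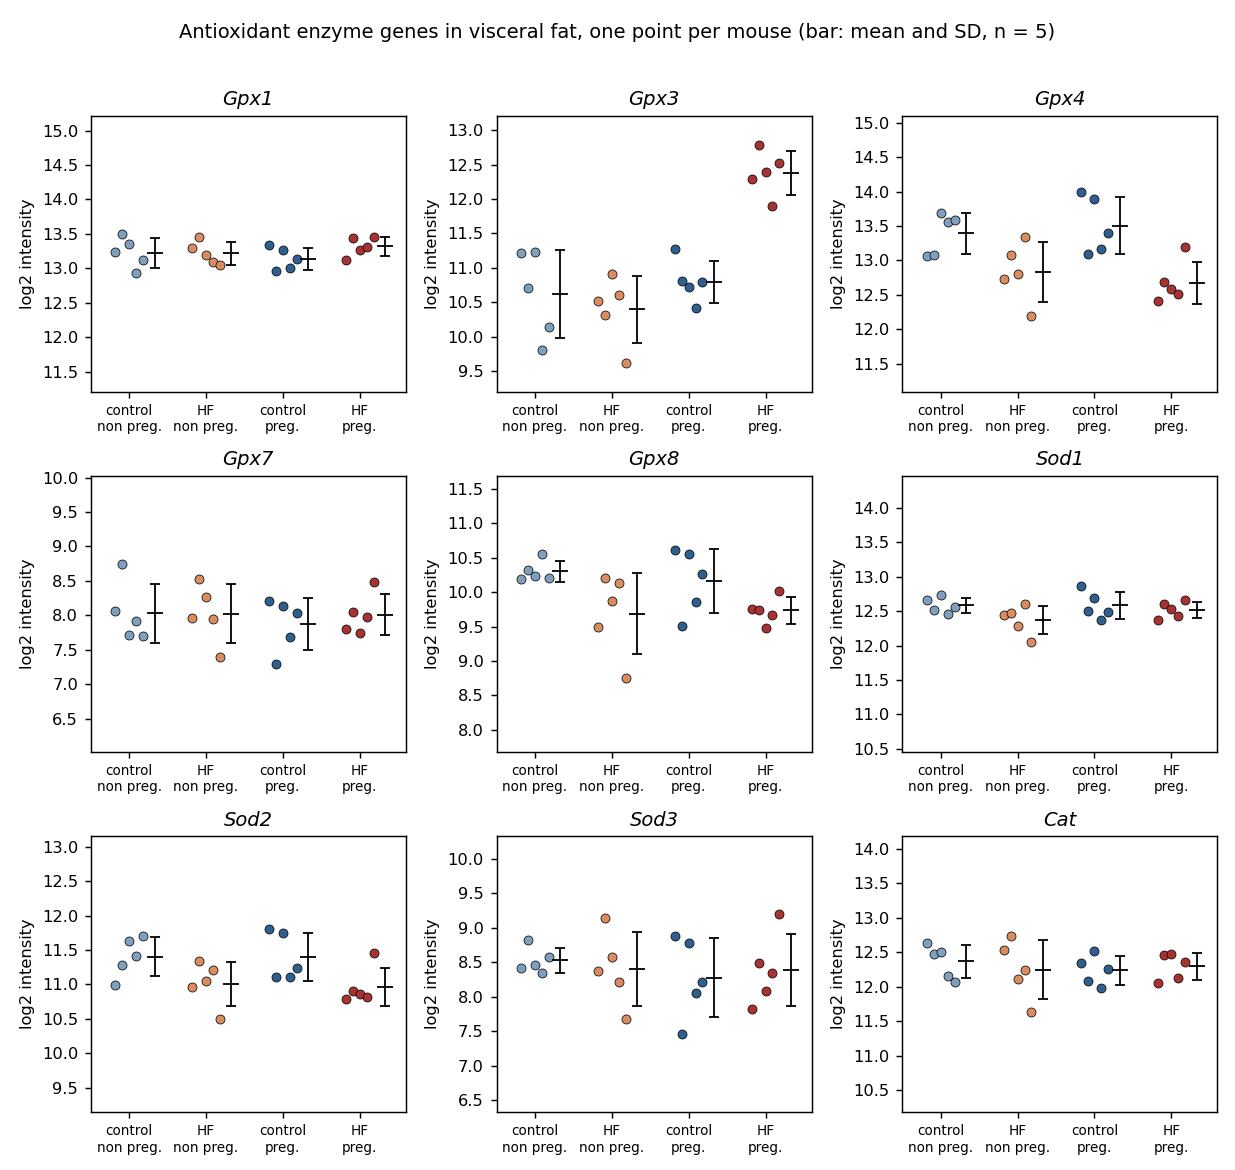
Log2 intensity of each of the 9 genes by group, 1 point for each mouse and a bar at the mean with SD (n = 5); the vertical axes differ in position and share one span. Gpx3 points of HF pregnant mice lie between 11.89 and 12.78, above all others, whereas the points of Gpx4 and Sod2 lie lower in HF than in control mice with overlap.

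Between pregnant and non pregnant HF mice, Gpx3 rose by 1.98 on the log2 scale (SE 0.27, 95% confidence interval 1.40 to 2.56, limma adjusted p = 0.0079), or 3.95-fold, and was the only one of the 9 genes that passed the test. This comparison called 5 of 19802 probe sets (0.0252%), of which 3 were higher in HF pregnant mice (0.0151%). Groups that did not overlap, with HF pregnant higher, were found for 0.641% of probe sets. The other peroxidases of the list gave log2 differences of 0.10 (95% confidence interval -0.13 to 0.33) for Gpx1, -0.15 (-0.62 to 0.31) for Gpx4, -0.01 (-0.50 to 0.47) for Gpx7 and 0.05 (-0.45 to 0.55) for Gpx8. The dismutases gave 0.14 (-0.08 to 0.37) for Sod1, -0.05 (-0.44 to 0.35) for Sod2 and -0.01 (-0.61 to 0.59) for Sod3, and catalase 0.05 (-0.32 to 0.41). The intervals of Gpx4 and Sod3 hold a change of 1.5-fold, and those of the other 6 genes leave it out in either direction. Fitted to these 2 groups alone, the call of Gpx3 was lost (limma adjusted p = 0.0754), while the log2 difference stayed at 1.98. That fit called 0 of 19802 probe sets.

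Within pregnancy, Gpx3 was also higher on the HF diet than on the control diet, by 1.58 on the log2 scale (SE 0.27, 95% confidence interval 0.9999 to 2.15, limma adjusted p = 0.0173), or 2.98-fold. The HF pregnant mice serve in this comparison as in the last, so the values are set side by side and are not separate evidence. The comparison called 38 probe sets (0.192%), 3 of them higher in HF pregnant mice (0.0151%), and Gpx3 was again the only called gene of the 9. Without control pregnant 3 or without HF pregnant 2, 3 or 5, its adjusted p was 0.0690, 0.0704, 0.0625 and 0.0519, with log2 differences of 1.56, 1.48, 1.57 and 1.54. Those fits called 15, 22, 16 and 18 probe sets in all, against 38. Gpx4 gave a log2 difference of -0.83 (95% confidence interval -1.29 to -0.36, limma adjusted p = 0.1451), the largest of the uncalled members, and Sod2 of -0.44 (-0.83 to -0.04, adjusted p = 0.3439). Gpx8 differed by -0.43 (adjusted p = 0.4476), and the remaining 5 genes by between -0.07 and 0.18.

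In the absence of pregnancy the HF diet changed none of the 9 genes past the threshold, and none of all 19802 probe sets (0%), although 3500 of them (17.7%) had an unadjusted p under 0.05. Gpx8 (-0.61, 95% confidence interval -1.11 to -0.11) and Gpx4 (-0.57, -1.03 to -0.10) had the lowest values, with Sod2 at -0.39 (-0.79 to 0.00) and Sod1 at -0.21 (-0.44 to 0.01), each with a limma adjusted p of 0.2811. Gpx3 differed by -0.23 (95% confidence interval -0.80 to 0.35). With array weights estimated from these data this value turned to 0.61 (limma adjusted p = 0.0368), and 7489 probe sets were called in all. The largest weights in these groups were those of HF non pregnant 3 (11.3) and control non pregnant 4 (4.45), an array high in pancreatic genes. Their Gpx3 log2 intensities were 10.92, the highest of the HF group, and 9.80, the lowest of the control group. In control mice, pregnancy called none of the 9 genes and no probe set at all (0%), with 575 (2.90%) under an unadjusted p of 0.05. The log2 difference of Gpx3 there was 0.18 (95% confidence interval -0.40 to 0.76), and the other 8 genes lay between -0.25 for Sod3 and 0.11 for Gpx4.

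**Figure D2:**
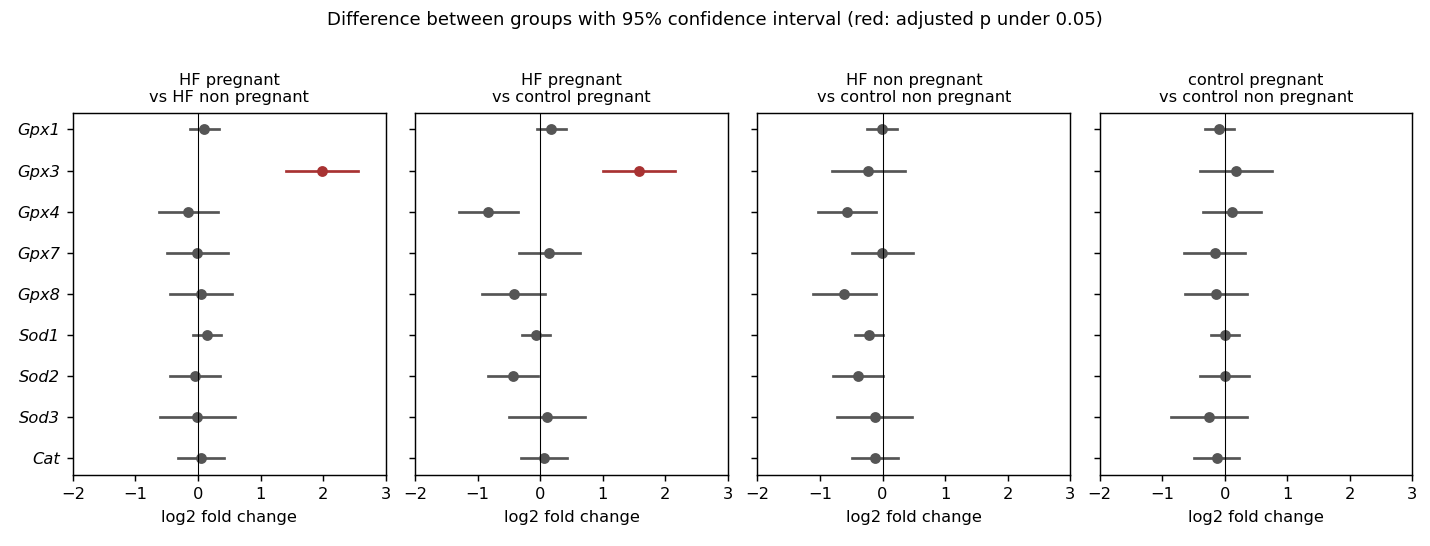
Log2 fold changes of the 9 genes in the 4 comparisons of groups, with 95% confidence intervals from limma; red marks an adjusted p under 0.05. Gpx3 is red at 1.98 and 1.58 in the comparisons that hold the HF pregnant group and lies near 0 in the other 2, and Gpx4 lies below 0 in both diet comparisons.

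An interaction term tested whether the response to pregnancy depended on diet. For Gpx3 the response on the HF diet exceeded that on the control diet by 1.80 on the log2 scale (SE 0.39, 95% confidence interval 0.99 to 2.62). This was the third smallest p of all probe sets, but no probe set passed the adjustment (0%; limma adjusted p = 0.9332 for Gpx3), and 610 (3.08%) had an unadjusted p under 0.05. The other 8 genes gave interaction values between -0.26 for Gpx4 and 0.24 for Sod3, with adjusted p from 0.9332 to 0.9804. Averaged over both diets, pregnancy gave 1.08 for Gpx3 (SE 0.19, limma adjusted p = 0.0944), an average of 1.98 on the HF and 0.18 on the control diet. None of the 9 genes was called in it, against 2 of all probe sets (0.0101%), with 908 (4.59%) under an unadjusted p of 0.05.

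Marker lists of other cell types leaned higher or lower in the comparison of pregnant with non pregnant HF mice, where the median log2 difference of all probe sets was -0.01. Of the 4 mast cell genes measured (median 0.89), Cma1, Cpa3 and Mcpt4 were higher, by 1.08, 0.94 and 0.85. Kit hardly differed (0.04, SE 0.38). The summed intensity of the 4 ran from 695.0 to 1563 in HF pregnant and from 537.8 to 1011 in HF non pregnant mice. Kit was the brightest of them, with a median intensity of 402.9 over all arrays. Mcpt4 lay around the intensity threshold of the filter (median 94.6, range 56.4 to 214.1). All 11 smooth muscle genes (median 0.55, summed intensity 40850 to 94290 against 13199 to 90315) and all 10 mesothelium genes (median 0.51, 5585 to 6647 against 2722 to 6389) were higher as well. The standard errors of the smooth muscle genes ran from 0.48 to 0.87. None of the marker genes was called in this comparison. Of 9 erythroid genes only Alas2, an enzyme of haem synthesis, passed the filter, at 145.6 to 1803 in HF pregnant and 55.8 to 191.6 in HF non pregnant mice. The groups overlapped in each of these sums. Log2 differences were negative for 5 of 5 brown fat genes (median -0.49, summed intensity 681.4 to 1993 in HF pregnant and 559.0 to 3215 in HF non pregnant mice), for 7 of 7 B cell genes (median -0.36, 942.4 to 8053 against 2174 to 17945) and for 7 of 8 T cell genes (median -0.43, 495.1 to 3513 against 1100 to 6545), and positive for 10 of 12 macrophage genes (median 0.23, 20320 to 28262 against 17993 to 28507). The endothelium list had a median of 0.13 with 9 of 10 positive, the fibroblast list of -0.08 with 4 of 10, and the adipocyte list of -0.05. The part of these cell types in the result for Gpx3 was not tested.

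Gpx4, the peroxidase of membrane lipids, was lower on the HF diet over both pregnancy states. Its log2 intensity was 13.07, 13.08, 13.69, 13.55 and 13.58 in control non pregnant mice and 12.73, 13.08, 12.80, 13.34 and 12.20 in HF non pregnant mice. It was 13.99, 13.09, 13.90, 13.16 and 13.39 in control pregnant mice and 12.41, 12.69, 12.58, 12.51 and 13.19 in HF pregnant mice. Within pregnancy, 4 of the 5 HF mice lay below every control mouse and HF pregnant 5 lay among them. Among non pregnant mice 3 of 5 HF mice lay below every control mouse. Averaged over pregnancy status, Gpx4 fell by 0.70 on the log2 scale (SE 0.16, 95% confidence interval -1.03 to -0.37, limma adjusted p = 0.0384), a 1.62-fold lower level. It was the only called gene of the 9, where 246 of 19802 probe sets were called (1.24%) and 219 were lower on the HF diet (1.11%).

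The call of Gpx4 lay close to the threshold. Its second probe set gave -0.72 (limma adjusted p = 0.0501). Of the 30 alternatives run for this comparison 16 kept the call, with log2 differences between -0.76 and -0.62 throughout. It was lost without the filter on dim probe sets (adjusted p = 0.0633), with the replicate number as a block (adjusted p = 0.1083) and without any 1 of 12 mice, namely control non pregnant 3, 4 or 5, HF non pregnant 1, 3 or 5, control pregnant 1 or 3 and HF pregnant 1, 2, 3 or 4 (adjusted p 0.0699 to 0.0927). Those 12 fits called 41 to 90 of all probe sets, against 246. The unadjusted limma p of Gpx4 in them was 5.53e-04 to 7.83e-04, against 3.04e-04 with all mice. Without the 2 arrays high in pancreatic genes the call of Gpx4 was kept (-0.73, adjusted p = 0.0406), and Gpx8 passed as well (-0.57, adjusted p = 0.0467), as the calls over all probe sets rose from 246 to 2011.

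Sod2 and Gpx8 had low values on the HF diet, and Gpx3 a high one, without passing the test. Sod2, the mitochondrial dismutase, differed by -0.42 on average over pregnancy status (95% confidence interval -0.70 to -0.14, limma adjusted p = 0.0882). Without pregnancy its mean log2 intensity was 11.40 ± 0.29 (SD, n = 5) in control and 11.01 ± 0.32 in HF mice, at E18.5 it was 11.40 ± 0.35 and 10.96 ± 0.28, and its other tested probe sets gave -0.51 and -0.31. Gpx8 differed by -0.52 (-0.87 to -0.16, adjusted p = 0.0903), from 10.30 ± 0.15 to 9.69 ± 0.59 in non pregnant and from 10.16 ± 0.47 to 9.73 ± 0.19 in pregnant mice. Gpx3 differed by 0.68 (0.27 to 1.08, adjusted p = 0.0735), an average of 1.58 in pregnant and -0.23 in non pregnant mice. Leaving out control pregnant 2, one of the arrays with pancreatic genes, changed the calls. Gpx3, Gpx8 and Sod2 then passed along with Gpx4, with 0.68, -0.60, -0.45 and -0.75. Their limma adjusted p was 0.0353, 0.0270, 0.0346 and 0.0200, and calls over all probe sets rose from 246 to 4321. The Gpx3 difference stayed at 0.68 and its unadjusted p rose from 0.0026 to 0.0042, so its call came with the adjustment over all probe sets. The unadjusted p of Gpx8 and Sod2 fell to 0.0015 and 0.0039. Without control non pregnant 4, the other such array, no member was called and calls over all probe sets fell to 42. Without control non pregnant 1, Gpx3 passed with 0.75 (adjusted p = 0.0482), and 470 probe sets were called in all.

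The remaining 5 genes showed little difference with diet. Gpx1 had group means of 13.23 ± 0.22, 13.22 ± 0.16, 13.14 ± 0.16 and 13.32 ± 0.14 (SD, n = 5, non pregnant groups first and control before HF), and its difference averaged over pregnancy status was 0.08 (95% confidence interval -0.08 to 0.25). Sod1, in the same order, had 12.58 ± 0.11, 12.37 ± 0.21, 12.58 ± 0.19 and 12.52 ± 0.12 and a difference of -0.14 (-0.30 to 0.02). For catalase the means were 12.37 ± 0.25, 12.25 ± 0.43, 12.24 ± 0.21 and 12.29 ± 0.19, and the difference -0.03 (-0.29 to 0.23). None of these differences passed the test. The extracellular dismutase Sod3 (8.53 ± 0.19, 8.40 ± 0.54, 8.28 ± 0.58 and 8.39 ± 0.52; difference -0.01, 95% confidence interval -0.44 to 0.42) and Gpx7 (8.03 ± 0.43, 8.02 ± 0.43, 7.87 ± 0.38 and 8.01 ± 0.29; difference 0.07, -0.28 to 0.41) did not pass it either. The intervals of all 5 leave out a change of 1.5-fold. The second tested probe sets of Sod3 and Cat and the 3 others of Sod1 gave diet differences of -0.07, -0.07 and between -0.19 and -0.09. Gpx1, Gpx3, Gpx7 and Gpx8 have 1 probe set each, so that no second measurement exists for them on this array. Of the other glutathione peroxidases, Gpx2, an enzyme of gut epithelium, exceeded the intensity threshold of 100 on 1 array (range 35.3 to 152.3), and Gpx5 and Gpx6 on none.

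Adipocyte markers were lower on the HF diet alongside Gpx4. All 11 tested had negative diet differences with a median of -0.24, against 0.04 for all probe sets, and none was called. Without pregnancy their summed intensity ran from 123112 to 133143 in control and from 84337 to 139347 in HF mice, and at E18.5 from 103234 to 149575 and from 102324 to 133900. Brown fat genes had a median of -0.86, with all 5 tested negative and Cidea called (-2.03, limma adjusted p = 0.0249). Macrophage genes had a median of 0.35 with 10 of 12 positive, T cell genes of 0.76 and B cell genes of 1.31 with all 8 and 7 positive, none of them called. Smooth muscle genes had a median of 0.33 with all 11 positive, and mast cell genes of 0.15 with all 4 positive. The medians were 0.13 for endothelium (8 of 10 positive), 0.05 for fibroblasts (6 of 10) and -0.07 for mesothelium (2 of 10). No gene of these lists was called either. The 3 pancreatic genes had a median of -1.06. Whether cell makeup had a part in the diet values of Gpx4, Gpx8 and Sod2 was not tested.

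From mouse to mouse within the groups, the 9 genes varied together. Over the 20 mice, taken as deviations from the group means, 21 of the 36 pairs had a Pearson r that passed a two-sided permutation test after Benjamini-Hochberg adjustment over the pairs, all of them positive. The median r of the 36 pairs was 0.61 (range 0.24 to 0.95). Among all pairs of the 10603 measured genes, 14.9% had an r of 0.61 or more and 50% were above 0. The share of all pairs that would pass the permutation test was not computed. The count of 21 therefore cannot be read as particular to these genes. All arrays share one normalization, and all RNA is from mixed cells, so the values describe how the probe sets varied together and no more.

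Gpx4 and Sod2 formed the closest pair, with r = 0.95 (permutation adjusted p = 1.80e-04, the raw p of 1.00e-05 being the smallest that 100000 permutations give), Spearman's rho of 0.95 (adjusted p = 3.60e-04) and r = 0.96 without the 2 mice farthest from the median of Gpx4. Both also varied with Gpx8 (r = 0.82 with Gpx4 and 0.77 with Sod2). Gpx7 and Sod3 formed a second close pair (r = 0.86, rho 0.84; 0.89 without the 2 farthest mice), and Gpx1 varied most closely with Sod3 (r = 0.78), Gpx7 (r = 0.75) and Cat (r = 0.74). Gpx3 stood least close to the rest. Its r was 0.24 with Sod2, 0.29 with Gpx4 and 0.32 with Gpx8 and Sod3, none of which passed. It passed with Sod1 (r = 0.67, permutation adjusted p = 0.00528; rho 0.61, adjusted p = 0.01461; 0.54 without the 2 farthest mice). With Cat it passed by r (0.61, permutation adjusted p = 0.02522) and not by rho (0.51, adjusted p = 0.07097), and r was 0.43 without the 2 farthest mice.

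**Figure D3:**
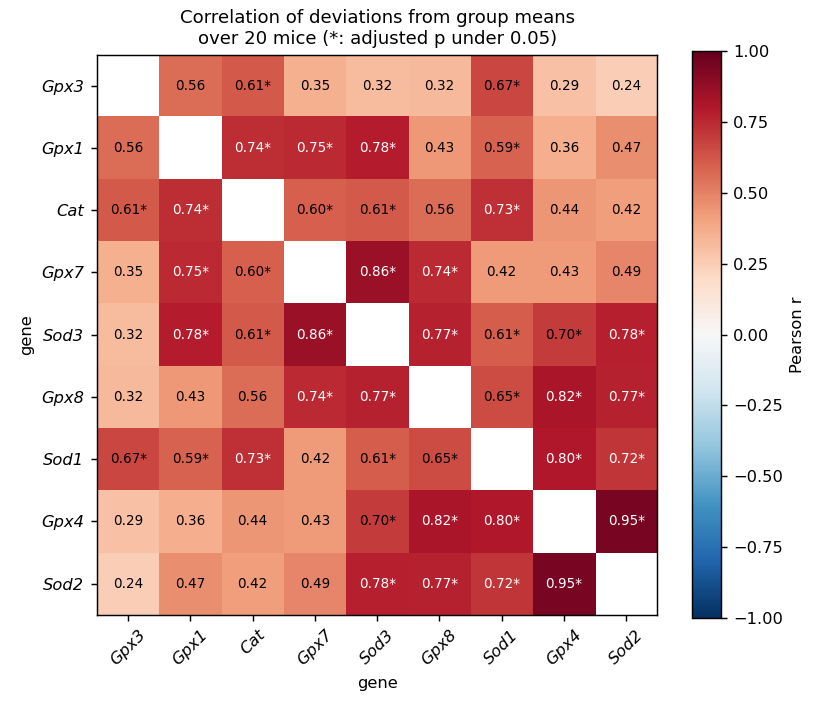
Pearson r between the 9 genes over 20 mice after removal of group means; the colour runs from -1 to 1 and a star marks a permutation adjusted p under 0.05. All 36 values are above 0, from 0.24 for Gpx3 with Sod2 to 0.95 for Gpx4 with Sod2, and the row of Gpx3 is the palest.

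Across the 20 arrays without removal of group means, the genes whose log2 pattern was most like that of each member were read from the other 10602 genes, as a description of likeness only. For Gpx3 these were Gart (Pearson r = 0.89), Reln (0.87), Ahr (0.87), Sned1 (0.87) and Sox18 (0.84), values that the high HF pregnant group shapes: with group means removed they were 0.71, 0.63, 0.67, 0.76 and 0.76. For Gpx4 they were Ndufa10, a subunit of respiratory complex I (r = 0.99), and Pcx, pyruvate carboxylase (0.98), and for Sod2 Ide (0.97) and Lpcat3 (0.97). The remaining members had Copz2 (0.97) and Prdx2 (0.96) for Gpx8, Fam120c (0.97) and Fkbp14 (0.96) for Gpx7, Hcar2 and Ddrgk1 (0.96 each) for Sod1, Hykk (0.95) and Htra3 (0.93) for Sod3, Ces1d and Dnase2a (0.89 each) for Cat, and AU021092 (0.89) and Ntrk2 (0.87) for Gpx1.

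Of 143 other antioxidant genes in 11 lists, 122 were measured above the filter, and none was called by limma in any of the 7 comparisons. In HF pregnant against HF non pregnant mice, 4 were higher and 2 lower at an unadjusted p under 0.05 (4.92%, against 4.66% of all probe sets). Selenos, a selenoprotein of the endoplasmic reticulum, had the smallest p there, with a log2 difference of 0.23 (adjusted p = 0.4723), followed by the glutathione S-transferase Gsta3 with -0.91 (adjusted p = 0.8149). The peroxiredoxin and thioredoxin list had a median of 0.00 and the list of selenium supply and selenoproteins of -0.01, against -0.01 for all probe sets. The medians were 0.14 for copper supply (5 of 6 positive), 0.11 for glutathione synthesis and recycling, 0.07 for oxidative protein folding and 0.06 for peroxisome assembly (10 of 12 positive in each of these 3). The Nrf2 list (0.04), the metallothioneins (0.10), the glutathione S-transferases and the list of peroxide and superoxide production (-0.01 each) made up the rest. In the other lists the smallest p belonged to Xdh (0.49), Cbr3 (0.33), Cp (0.51), Glrx5 (0.45), Mt1 (0.27), Pdia5 (0.23), Txnrd1 (0.13) and Pex6 (0.24), each with an adjusted p of 0.9999. In HF pregnant against control pregnant mice, 4 were higher and 17 lower (17.2%, against 12.8% of all probe sets), with Gsta3 at -1.42 (adjusted p = 0.0832). The smallest p of each other list belonged to Atp7a (0.33), Txnrd2 (-0.59), Bach1 (0.27), Glrx (-0.77), Selenoo (-0.23), Pex16 (-0.90), Qsox1 (-0.53), Poldip2 (-0.45) and Mt2 (0.37), with adjusted p from 0.1921 to 0.6516. In HF non pregnant against control non pregnant mice 9 were higher and 21 lower (24.6%, against 17.7%), with adjusted p of 0.2811 or more. The genes with the smallest p there were Pdia6 (0.30), Srxn1 (-0.66), Pex16 (-1.05), Gsta4 (-0.58), Cbr3 (-0.41), Msrb1 (-0.49), Glrx2 (-0.36), Poldip2 (-0.53), Atp7a (0.15) and Mt2 (0.58).

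Averaged over pregnancy status, 14 of the 122 were higher and 36 lower on the HF diet at an unadjusted p under 0.05 (41.0%, against 29.6% of all probe sets), with a median log2 difference of -0.08 against 0.04. Of all probe sets, 16.1% were higher and 13.5% lower at that level, and the counts of each list are to be read against these shares. The listed genes were again taken by their brightest tested probe set, so the shares are those of an unlike set. The glutathione S-transferases, which conjugate glutathione to reactive compounds, had 10 of 16 lower and none higher at that level, with a median of -0.37 and Gsta3 at -0.94 (limma adjusted p = 0.0506). Peroxisome assembly genes had 8 of 12 lower and none higher, with a median of -0.33 and Pex16, which inserts peroxisomal membrane proteins, at -0.98 (adjusted p = 0.0599). Of 12 genes of glutathione synthesis and recycling 5 were lower, median -0.23, with the glutaredoxin Glrx at -0.54 (adjusted p = 0.1084). The peroxiredoxin and thioredoxin system had 6 of 13 lower and 2 higher, with a median of -0.05 and the mitochondrial thioredoxin reductase Txnrd2 at -0.55 (adjusted p = 0.0509).

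The remaining lists had medians between -0.11 and 0.26. Oxidative protein folding in the endoplasmic reticulum, the compartment of Gpx7 and Gpx8, had 5 of 12 higher and 1 lower at the unadjusted level, with a median of 0.18 and the disulfide isomerase Pdia6 at 0.21 (limma adjusted p = 0.0566). The Nrf2 pathway and its targets had 2 of 13 higher and none lower, median 0.02, with Bach1, a repressor at antioxidant response elements, at 0.25 (adjusted p = 0.0591). Selenium supply and selenoproteins had 2 of 21 higher and 3 lower, with the methionine sulfoxide reductase Msrb1 at -0.42 (adjusted p = 0.0842). The list of peroxide and superoxide production had 2 of 15 each way. Its smallest p was that of Poldip2, not itself an enzyme that makes them, at -0.49 (limma adjusted p = 0.0864). Copper supply to the dismutases had 1 of 6 each way, with the copper transporter Atp7a at 0.24 (adjusted p = 0.0743). Both measured metallothioneins had positive differences, Mt2 at 0.47 (adjusted p = 0.2336).

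**Figure D4:**
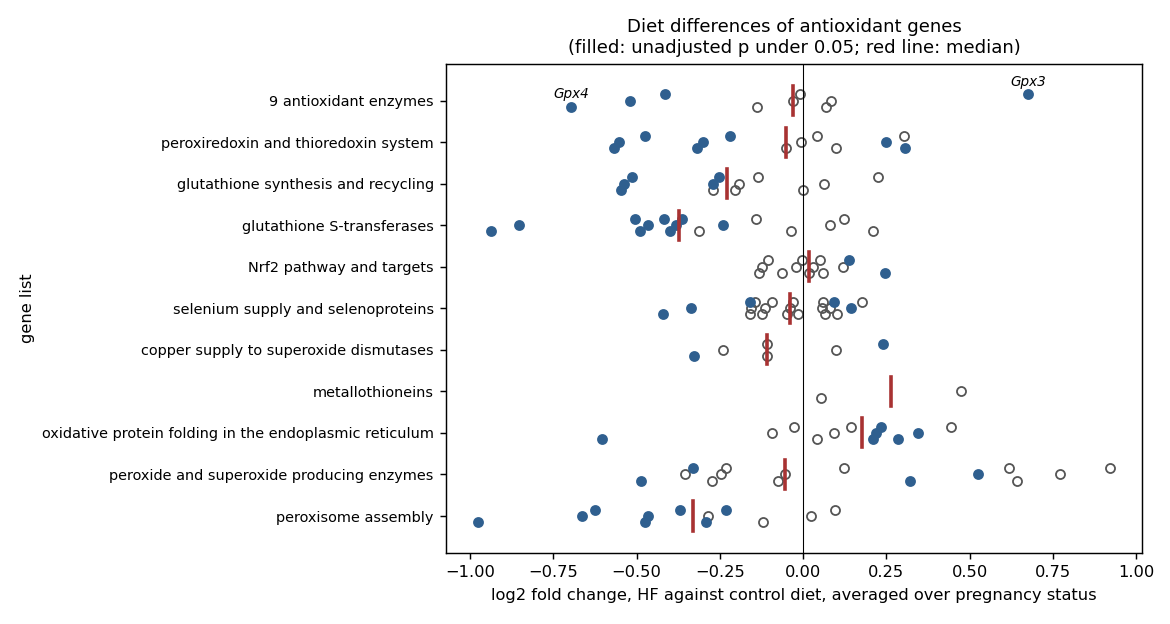
Diet difference (HF against control, averaged over pregnancy status, log2) of the 9 genes and of each measured gene of the other lists; filled points have an unadjusted p under 0.05 and red lines are list medians. Gpx4 and Gpx3 lie at -0.70 and 0.68 at the ends of the top row, and the medians of glutathione S-transferases (-0.37) and peroxisome assembly (-0.33) lie farthest below 0.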

How the data were processed

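RNA of mesenteric visceral fat from 20 mice was hybridized by the authors to Affymetrix Mouse Genome arrays, 1 mouse per array. The labels name Trizol for the extraction and the methods Qiagen columns, and no batch or scan date is given. The deposited values are intensities on the linear scale, which the authors made by robust multi-array average (RMA) with affy under R 2.8.0, with array medians between 60.69 and 64.73. Every column was mapped to a sample by its label.

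Log2 was taken without further normalization. Symbols came from the platform annotation: 34958 probe sets had 1 symbol, 932 had several and 9211 had none. Probe sets above 100 on at least 5 of 20 arrays were tested, which kept 19802 (43.91%); 64 control probe sets were left out. The 4 group means of each were estimated by limma 3.58.1 (R 4.3.3), with eBayes and Benjamini-Hochberg adjustment over all tested probe sets and a threshold of 0.05. The procedure was tested on simulated data. The members and gene lists were chosen with earlier results of these data known. Named besides the 9 members were, per list, the gene with the smallest p in 4 comparisons, and the 5 genes most like Gpx3 and the 2 most like each other member. These comparisons were HF pregnant with HF non pregnant, HF pregnant with control pregnant, HF non pregnant with control non pregnant, and diet on average. List genes of the other comparisons were not named. Correlations used 100000 permutations within groups. The number of mice limits the precision, and fold changes of dim probe sets are understated by RMA. Alternatives were other filters, moderation, array weights, centring, repeated quantile normalization, means of probe sets, a floor at 100, the replicate number as a block, an unadjusted p with a 1.5-fold change, fits to 2 groups alone and leaving out arrays.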

Additional observations from a re-analysis of the deposited data

Results flagged for a closer look

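Sod2 in HF pregnant 5 had a log2 intensity of 11.46, apart from the other 4 HF pregnant mice, which lay between 10.78 and 10.90. It was the only sample that stood apart from its group in this way among 36 groups (9 genes in 4 groups), where about 1 in 20 would by chance. The same mouse had the highest HF pregnant values of Gpx1 (13.45), Gpx4 (13.19), Gpx7 (8.48), Sod1 (12.66), Sod3 (9.19) and Gpx8 (10.02). Its Gpx3 value (12.52) was the second highest of the group.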

How the results depend on the processing

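Gpx3 kept its call in 30 of 31 alternatives between the HF groups (log2 difference 1.51 to 2.11, limma adjusted p 3.60e-04 to 0.0754) and in 27 of 31 between the pregnant groups (1.48 to 1.70). Leaving out a mouse of another group, or changing the filter, cannot alter the log2 difference between the groups compared. The counts are therefore no independent support. The number of called members was 0 rather than 1 in the fit to the HF groups alone, which called 0 of 19802 probe sets. Leaving out single mice gave 0 to 1 between the pregnant groups. The fits with 0, without control pregnant 3 or HF pregnant 2, 3 or 5, called 15, 22, 16 and 18 probe sets, against 38. For diet averaged over pregnancy status, leaving out single mice gave 0 to 4, with 41 to 4321 calls over all probe sets against 246. For pregnancy averaged over diets it gave 0 to 1. The 1 was Gpx3 without control non pregnant 3 (1.16, limma adjusted p = 0.0258), where 10 probe sets were called, against 2. With array weights, 4 members were called between the pregnant groups, 5 between the non pregnant groups, 4 for diet on average and 1 for pregnancy on average, as calls over all probe sets rose to 1365, 7489, 9136 and 1706, and Gpx3 in HF non pregnant against control non pregnant mice reversed from -0.23 to 0.61 (adjusted p = 0.0368); the cause was not tested. Weights ranged from 0.233 (control pregnant 1) to 11.3 (HF non pregnant 3). A 1.5-fold change at an unadjusted p under 0.05 called 2 members between the pregnant groups (2.83% of all probe sets), 1 between the non pregnant groups (3.91%), 1 for the interaction (0.894%), 2 for diet (3.17%) and 1 for pregnancy (0.530%). For diet, 0 were called with no filter (112 of 45037 probe sets in all) and 2 without the 2 arrays high in pancreatic genes (2011 of 19802). Deviations of samples with the same replicate number had a median r of -0.16 over 30 pairs (range -0.75 to 0.67, 10 over 0.1). No value for pairs of unlike number was taken beside them, so they cannot decide whether the numbers mark pairs. The main fit did not use the numbers. With the replicate number as a block, 0 members were called for diet (Gpx4 limma adjusted p = 0.1083), with 19 probe sets in all against 246. Both calls of Gpx3 were kept with the block. Pairs of members past the threshold numbered 15 to 26 over the alternatives, and 19 without the 2 arrays high in pancreatic genes, against 21. No alternative called a member between the control groups. The deposited table was used without detection calls, so the signal over background of dim probe sets is not known.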
